A study of Mus musculus with 8 samples.

Results

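The tissue dependence of the effect of HAI-1 loss is the difference between what loss of this protease inhibitor did to gene expression in intestinal tumours and what it did in the mucosa beside them. It was computed for each gene as an interaction: the change from control to HAI-1 deficient tumours minus the change from control to HAI-1 deficient mucosa, each from group means of log2 microarray signal. A positive interaction means that the effect of HAI-1 loss lay higher in tumours than in mucosa, and a negative one that it lay lower. All 8 arrays of the study enter it, and 13119 of the 18195 genes with a probe set of their own were tested, after the dimmest probe sets were set aside. The remaining 5076 genes did not pass that filter.

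All mice carried the Apc Min/+ allele, a germline truncation that gives rise to intestinal adenomas, had a C57BL/6 background and ate the semipurified AIN-76 diet. Controls carried homozygous floxed Spint1, the gene of HAI-1, without the recombinase. HAI-1 deficient mice were Spint1 flox/flox with the Vil-Cre transgene, whose villin promoter drives Cre in intestinal epithelium, so fibroblasts, vessels, nerves and leukocytes keep the gene. From each genotype there were 2 arrays of non-tumour small intestinal mucosa and 2 of intestinal tumours, called here control mucosa, deficient mucosa, control tumours and deficient tumours. The labels give neither the ages nor whether each array is a different mouse, and the free-text description of the deficient mucosa arrays calls them tumour while their tissue type is non-tumor. The p-values therefore measure only the spread between these arrays, which may be technical. In pieces of whole tissue, fewer cells of a type and less RNA per cell cannot be told apart.

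HAI-1 is a Kunitz-type inhibitor on the surface of epithelial cells. It restrains membrane-bound serine proteases such as matriptase and prostasin, as well as the activator of hepatocyte growth factor, a ligand of the Met receptor. These proteases act on junctions, the epithelial barrier and growth factor precursors, and intact HAI-1 is known to be needed for barrier function in the gut.

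The epithelial genes Vil1, Fabp2, Cdh1 and Epcam had signals of 13.62 to 15.29 on the log2 scale on every array. Notum and Lgr5, which mark Wnt-active adenoma cells, were higher on all 4 tumour arrays than on any mucosa array. The median signal of the tested genes followed the groups. It was 8.74 and 8.65 in control mucosa, 8.85 and 8.87 in deficient mucosa, and 9.01 to 9.17 in tumours. Tested genes under the filter value numbered 689 and 891 in control mucosa and 260 to 457 on the other arrays. Whether this reflects the tissues or the scaling was not tested. Other technical measures differed in ways that do not follow the groups. Poly-A spike-in signal, which reflects the labelling reaction, was 9.10 to 9.17 on the second array of each group except control tumours, and 7.43 to 8.04 on the remaining 5 arrays. For Gapdh, signal at the 3' end exceeded that at the 5' end 25.9-fold on the second control tumour array, where the other arrays gave 0.803 to 1.77, and the second arrays of both mucosa groups had 18S rRNA signals of 13.63 and 14.60 against 7.61 to 10.07. Results were recomputed without each array, within the low spike-in arrays and with the spike-in level as a covariate. Only some of the values that moved are given. A list median printed alone may have moved too, since 39 of the 45 gene lists below moved past 1.5 times or changed sign without some array. The part of the Gapdh and 18S differences was not tested otherwise.

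Spint1 itself was lower on both deficient arrays of each tissue. Its log2 signal was 12.87 and 13.00 in control mucosa, 12.46 and 12.25 in deficient mucosa, 12.75 and 13.06 in control tumours, and 11.76 and 11.84 in deficient tumours. Control and deficient arrays did not overlap in either tissue, yet the deficient arrays kept a high signal. The effect was -0.58 in mucosa and -1.10 in tumours, and the interaction was -0.52 ± 0.34 (SE, n = 2 arrays per group), with an adjusted p of 0.686. Spint1 has 1 probe set here, and its position relative to the floxed exons is not known, so the size of the deletion cannot be read from it.

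No gene passed the interaction test after adjustment over all genes tested (percent called: 0), and the smallest adjusted p was 0.180 by limma. No alternative setting that was fitted gave a call either, with the smallest adjusted p between 0.0796 and 0.384. At an unadjusted p under 0.05, used from here on as a description, 1211 genes stood out, or 9.23% of those tested. In 272 genes the effect lay higher in tumours (2.07% of all genes) and in 939 it lay lower (7.16%). The share on the lower side, 77.5%, was 63.1% when each array was centred on its median and 54.7% with the first control tumour array left out. The median interaction over all genes was -0.12, from a median effect of 0.11 in mucosa and -0.01 in tumours, and was -0.03 after median centring.

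The effects behind these interactions differed in size between the tissues. In mucosa, 138 genes passed an adjusted p of 0.05, of which 118 rose (0.899% of genes) and 20 fell (0.152%). In tumours none passed (0%), with 802 genes at an unadjusted p under 0.05 and a smallest adjusted p of 0.779. The median absolute effect was 0.35 in mucosa and 0.28 in tumours, beside a spread between the 2 arrays of a group of 0.45 to 0.50 (SD). The mucosa count rests on all its arrays: it was 7 without the first and 3 without the second control mucosa array, 0 without either deficient mucosa array, and 11 without either control tumour array, which lends only its spread. Across the 13119 genes, which are not independent, the effect in mucosa and the effect in tumours, which share no array, had a Pearson r of 0.29 and a Spearman rho of 0.24. That r was 0.08 without the second deficient tumour array.

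**Figure D1:**
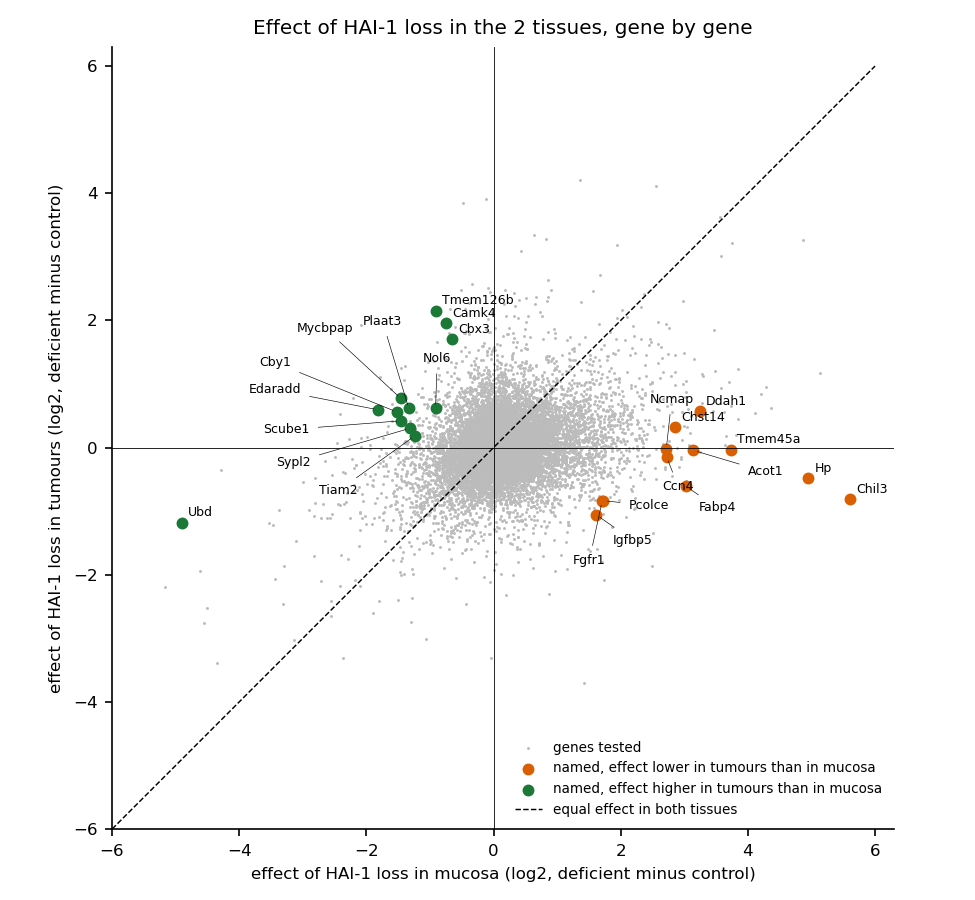
Each point is a gene, with the effect of HAI-1 loss in mucosa on the horizontal axis and in tumours on the vertical axis, both as deficient minus control in log2 signal. Points on the dashed line have equal effects in both tissues. The 12 named genes with the lower effect in tumours lie to the right, with mucosa effects of 1.61 to 5.60, and most of those with the higher effect in tumours lie above the line, to the left.

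Among the 12 genes named for a lower effect in tumours, all rose in deficient mucosa, and control mucosa had the lowest mean of the 4 groups in each. In 10 of the 12, deficient mucosa lay above control mucosa and below both tumour groups. This order is partly fixed by the choice of genes and is given as a description.

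Chil3, a chitinase-like lectin secreted by macrophages and neutrophils, had the interaction of largest size among these 12, but not after low signals were raised. Its log2 signal was 0.00 and 1.40 in control mucosa, 6.32 and 6.29 in deficient mucosa, 7.73 and 8.22 in control tumours, and 7.54 and 6.78 in deficient tumours. The control mucosa arrays stood far below all others, and the tumour genotypes separated in the opposite direction. The interaction was -6.42 ± 0.68 (SE, adjusted p = 0.180). Since values that low have no reliable order, the signals were also raised to the filter value of 5.20 before the means were taken, and the interaction was then -1.92, smaller in size than that of Fabp4 at -3.64. Haptoglobin, Hp, the plasma protein that binds free haemoglobin, had 1.48 and 1.75 in control mucosa, 6.61 and 6.52 in deficient mucosa, 10.71 and 9.0 in control tumours, and 8.73 and 10.02 in deficient tumours. Deficient mucosa lay between control mucosa and the tumours, whose genotypes overlapped. Its interaction was -5.43 ± 0.85 (adjusted p = 0.254), or -1.84 with low signals raised.

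Several genes showed an effect in mucosa and nearly none in tumours. Acot1, a cytosolic thioesterase that releases fatty acids from acyl-CoA, had 5.71 and 5.79 in control mucosa, 8.70 and 9.09 in deficient mucosa, 9.09 and 9.22 in control tumours, and 9.28 and 8.94 in deficient tumours. Control mucosa alone was low, and the other groups lay close together. Its mucosa effect was 3.14 ± 0.26 (adjusted p = 0.0139), its tumour effect was -0.04 ± 0.26, and its interaction was -3.18 ± 0.36 (adjusted p = 0.180). Ncmap, a membrane protein of non-compact myelin, had a mucosa effect of 2.72 and a tumour effect of -0.02. Tmem45a, a transmembrane protein, had 3.73 and -0.03. Ccn4, a secreted matricellular protein first found as a Wnt1-induced gene, had 2.72 and -0.15. With low signals raised, the interactions of Ncmap, Tmem45a and Ccn4 were -2.12, -1.82 and -1.39. Ddah1, which degrades an endogenous inhibitor of nitric oxide synthase, and Chst14, a dermatan sulfotransferase, had effects above 0 in both tissues, with interactions of -2.67 and -2.54. Chst14 came to -1.08 with low signals raised. For Ddah1, the other 4 probe sets gave interactions from -2.06 to 0.80.

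In the remaining 4 genes the tumour arrays were apart as well, with the deficient ones lower. Pcolce, a secreted enhancer of procollagen processing, had 6.15 and 6.38 in control mucosa, 8.18 and 7.81 in deficient mucosa, 9.54 and 9.73 in control tumours, and 8.88 and 8.72 in deficient tumours. Both deficient arrays were above both controls in mucosa and below both controls in tumours. The effect was 1.73 ± 0.25 in mucosa (adjusted p = 0.0395) and -0.83 ± 0.25 in tumours (adjusted p = 0.779), and the interaction was -2.56 ± 0.36 (adjusted p = 0.180). Igfbp5, an insulin-like growth factor binding protein, had an effect of 1.61 in mucosa and -1.06 in tumours. Fgfr1, a fibroblast growth factor receptor, had 1.71 and -0.84. Fabp4, the fatty acid binding protein of adipocytes and capillary endothelium, had 3.03 and -0.61. Arrays of these 3 genes were likewise apart in opposite directions. A second probe set of Fgfr1 that passed the filter gave an interaction of -0.58, and a second one of Igfbp5 gave -0.45.

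**Figure D2:**
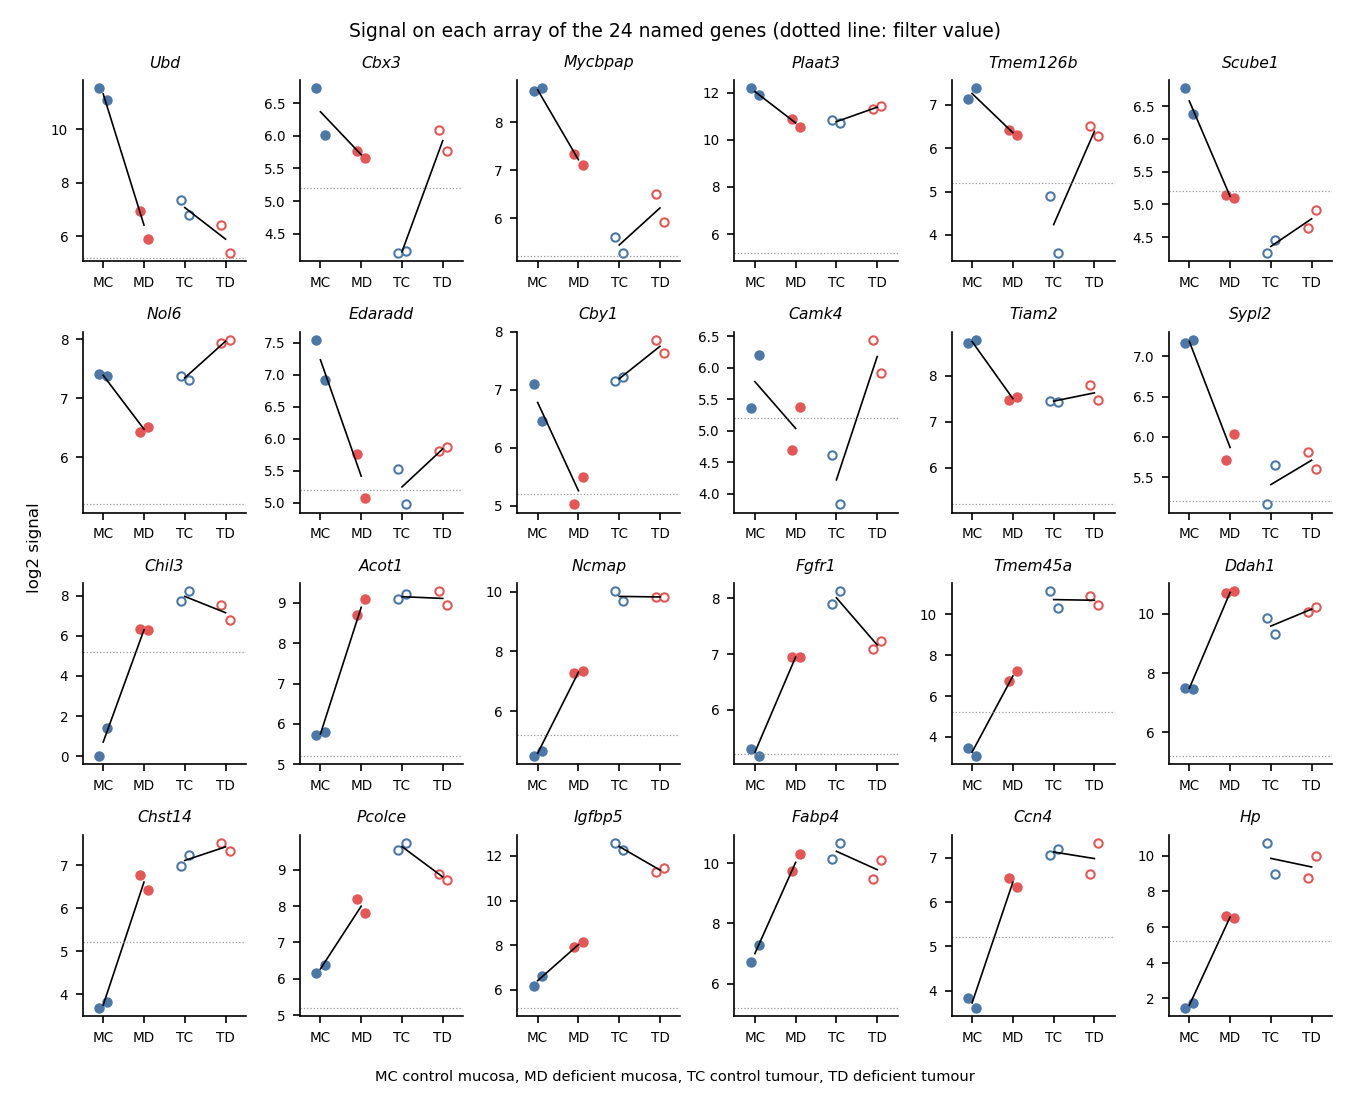
Log2 signal on each array for the 24 genes named by the smallest interaction p in each direction, 2 arrays per group. Filled points are mucosa, open points are tumours, blue is control and red is deficient. Lines join the group means of a tissue and the dotted line is the filter value of 5.20. In the upper 12 panels the line tends to fall in mucosa and to rise in tumours, except Ubd. In the lower 12 panels the mucosa line rises.

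Among the 12 genes named for a higher effect in tumours, the arrays of 9 were apart in opposite directions in the 2 tissues. The choice of genes favours this, so the count is a description. After adjustment, 1 of the 12 fell in deficient mucosa. Ubd, a ubiquitin-like protein that interferon-gamma induces, was the one that fell. Its log2 signal was 11.53 and 11.10 in control mucosa, 6.93 and 5.91 in deficient mucosa, 7.36 and 6.78 in control tumours, and 6.40 and 5.38 in deficient tumours. Control mucosa stood far above the other groups, and in both tissues the deficient arrays were the lower ones. The effect was -4.90 ± 0.47 in mucosa (adjusted p = 0.0148) and -1.18 ± 0.47 in tumours, with an interaction of 3.72 ± 0.66 (adjusted p = 0.254).

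The other 11 genes had effects below 0 in mucosa and above 0 in tumours, none past the adjusted threshold. Plaat3, a phospholipase and acyltransferase, had the highest signals: 12.19 and 11.91 in control mucosa, 10.89 and 10.54 in deficient mucosa, 10.84 and 10.70 in control tumours, and 11.32 and 11.45 in deficient tumours. Its groups did not overlap within either tissue, and the interaction was 1.95 ± 0.35 (adjusted p = 0.254). Mycbpap, which binds a Myc-binding protein, had 8.65 and 8.71 in control mucosa, 7.33 and 7.11 in deficient mucosa, 5.60 and 5.28 in control tumours, and 6.51 and 5.92 in deficient tumours. The direction was opposite in the 2 tissues on all arrays, and the interaction was 2.23 ± 0.40. Tiam2, an exchange factor for the small GTPase Rac, had an effect of -1.24 in mucosa and 0.18 in tumours, and Sypl2, a synaptophysin-like protein, had -1.32 and 0.30. Cby1, an antagonist of beta-catenin, had -1.52 and 0.56, and Edaradd, the adaptor of the ectodysplasin receptor, had -1.82 and 0.59.

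For Cbx3, a heterochromatin protein, Tmem126b, a mitochondrial complex I assembly factor, and Camk4, a calcium-dependent kinase, the larger part of the interaction came from tumours. Their tumour effects were 1.70, 2.15 and 1.95, and the control tumour arrays of all 3 were under the filter value. With low signals raised, their interactions were 1.38, 2.09 and 1.46 instead of 2.36, 3.06 and 2.70. Scube1, a secreted protein with EGF-like repeats, had an interaction of 1.88, and of 1.38 with low signals raised, since 6 of its 8 arrays were under the filter value. Nol6, a nucleolar protein of ribosome assembly, had an interaction of 1.53, but its second probe set gave -1.87, so these probe sets disagree in sign.

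Matrix genes had interactions mostly below 0. Of the 19 tested of 22 fibrillar, basement membrane and other collagens, all had an interaction below 0. The sign alone is not particular to them. All 18 tested cytosolic ribosomal proteins and 27 of 29 genes of DNA replication and mitosis were below 0 too. The effect lay lower in tumours at an unadjusted p under 0.05 in 11 (57.9%, against 7.16% of all genes) and higher in 0 (against 2.07%). The median interaction was -1.72, from a median effect of 1.14 in mucosa and -0.47 in tumours, against -0.12, 0.11 and -0.01 over all genes. None of the 19 passed the adjusted threshold in mucosa, in tumours or for the interaction.

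Col1a2, a chain of type I collagen, had a log2 signal of 8.19 and 8.44 in control mucosa, 9.68 and 9.39 in deficient mucosa, 12.77 and 12.46 in control tumours, and 12.04 and 12.02 in deficient tumours. Deficient arrays were above both controls in mucosa and below both controls in tumours, while all tumour arrays were far above all mucosa arrays. The effects were 1.21 and -0.59, and the interaction was -1.80 ± 0.36 (adjusted p = 0.254). Col5a1 and Col5a2, chains of the type V collagen that seeds fibrils, had interactions of -1.87 and -1.97, with effects of 1.04 and 1.19 in mucosa and -0.82 and -0.78 in tumours. Col1a1, the other type I chain, had an interaction of -2.17. Left-out arrays moved the median of the collagens between -1.92 and -1.59, and within the arrays of low spike-in signal it was -1.54.

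Fibroblast and matrix glycoprotein genes gave a similar count, with 9 of 20 tested genes lower in tumours (45%) and 0 higher. Their median interaction was -1.62, from 0.61 in mucosa and -0.72 in tumours, but only -0.66 within the arrays of low spike-in signal. Pdgfrb, the platelet-derived growth factor receptor of fibroblasts and pericytes, had 7.80 and 7.48 in control mucosa, 8.91 and 9.25 in deficient mucosa, 10.65 and 10.62 in control tumours, and 9.71 and 10.14 in deficient tumours. Its groups were apart in opposite directions, with an interaction of -2.15 ± 0.39 (adjusted p = 0.254). Fibronectin, Fn1, had effects of 0.55 in mucosa and -1.08 in tumours. Sparc, a collagen-binding glycoprotein, had 1.60 and -0.53, and Bgn, the proteoglycan biglycan, had 1.03 and -0.66.

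Matrix proteases and their inhibitors had 6 of 19 tested genes lower in tumours (31.6%) and 0 higher, with a median interaction of -1.0. Mmp14, a membrane-anchored metalloproteinase that cleaves collagen, rose in deficient mucosa. It had 9.30 and 9.18 in control mucosa, 11.37 and 10.79 in deficient mucosa, 12.56 and 12.43 in control tumours, and 12.05 and 12.30 in deficient tumours. Its mucosa effect of 1.84 (adjusted p = 0.0395) stood beside -0.32 in tumours, where the groups were again apart, and its interaction was -2.16 ± 0.39. The secreted collagenase Mmp13 had effects of 1.58 and -0.65, the stromelysin Mmp10 had 1.89 and -0.73, and the metalloproteinase inhibitor Timp1 had 1.28 and -0.44. Regulators of epithelial-mesenchymal transition had 4 of 13 lower (30.8%) and 0 higher, with a median of -1.0 that was -0.53 with low signals raised. It was -0.62 and -0.53 without the first and second deficient mucosa arrays. Snai2 and Zeb1, transcriptional repressors of E-cadherin, had interactions of -2.39 and -1.44, and the intermediate filament gene Vim had -1.71. All 3 are also expressed by stromal cells, and Cdh1 itself had an interaction of -0.13.

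Genes of other non-epithelial cells moved with the matrix genes, and their part in the matrix values was not tested. Endothelial genes had 6 of 19 lower (31.6%) and 0 higher, with a median of 1.26 in mucosa and 0.01 in tumours. Their median interaction was -1.29, -0.65 within the arrays of low spike-in signal and -0.79 without the second deficient mucosa array. Tek, the angiopoietin receptor, rose by 2.25 in deficient mucosa (adjusted p = 0.0348) and had an effect of 0.02 in tumours. Flt4, a lymphatic growth factor receptor, had effects of 1.26 and -0.30, and the clotting protein gene Vwf had 2.10 and -0.19. Sox17, a transcription factor of arterial endothelium and endoderm, rose by 3.30 in mucosa (adjusted p = 0.0395) and had 1.13 in tumours.

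Smooth muscle genes had 5 of 16 lower (31.2%) and 0 higher, with a median effect of 0.71 in mucosa and 0.02 in tumours. The mucosa median was 0.32 without the first deficient mucosa array and 1.19 without the second. The median interaction of -0.71 was -0.45 and -1.24 in these cases, -1.20 and -0.35 without the first and second control tumour arrays, and -1.09 without the first deficient tumour array. Cald1, an actin-binding protein of contractile cells, rose by 1.61 in mucosa (adjusted p = 0.0395), had -0.54 in tumours, and had an interaction of -2.15 ± 0.34. The contractile genes Acta2, Des and Myh11 had interactions of -1.53, -1.85 and -2.33. Among enteric neuron and glia genes, 2 of 14 were lower (14.3%, against 7.16% of all genes) and 1 was higher (7.14%, against 2.07%). The neuropeptide gene Vip had effects of 0.38 and -1.41. For the lists of endothelial, smooth muscle and neural genes as for the collagens, the list median in each group was lowest in control mucosa. That order is not particular to these cells. It also held for the ribosomal protein, mitosis, cholesterol synthesis and hypoxia lists, while the antiviral list was highest in control mucosa.

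**Figure D3:**
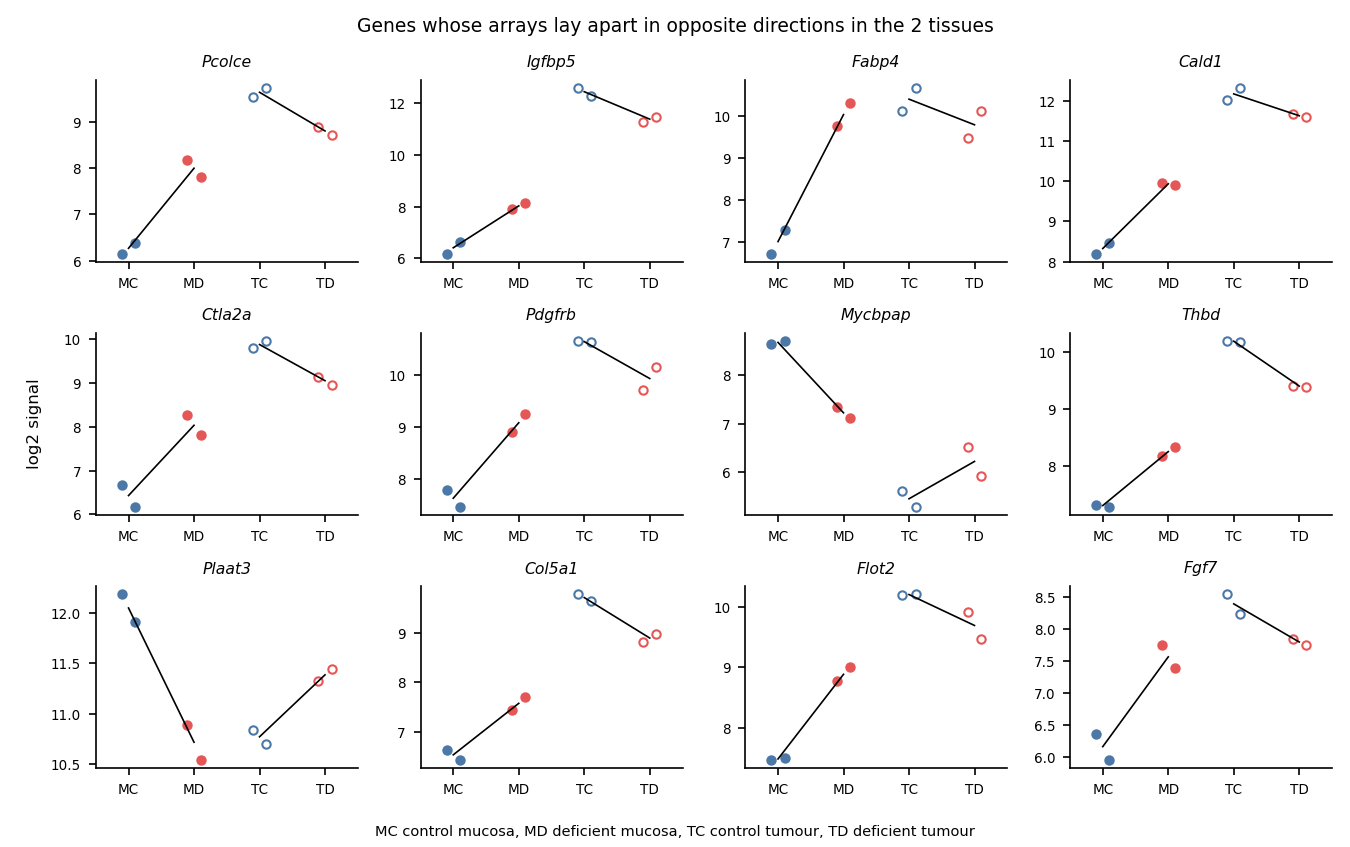
Log2 signal on each array of the 12 genes with the smallest interaction p among those whose arrays were apart in opposite directions in the 2 tissues, by group means of 0.5 or more, with no array under the filter value. Filled points are mucosa, open points tumours, blue control and red deficient, and lines join group means. In 10 of the 12 the mucosa line rises and the tumour line falls. Mycbpap and Plaat3 run the other way.

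The opposite directions were counted over all genes. The arrays of 545 genes (4.15%) were apart with deficient mucosa higher and deficient tumours lower, and those of 263 (2.0%) the other way. In 882 of the 13119 genes tested they were apart with the deficient arrays higher in both tissues and in 652 with the deficient arrays lower in both. What 2 arrays per group would give without any effect was not estimated, so these counts are descriptions. Among the genes apart in opposite directions, 98 and 30 had group means at least 0.5 apart in both tissues and no array under the filter value. The genes with the smallest interaction p among these 128 were examined after their values were seen. They were Pcolce, Igfbp5, Fabp4, Cald1, Ctla2a and Pdgfrb, followed by Mycbpap. Then came Thbd, the thrombin receptor of endothelium, with effects of 0.95 and -0.79, Plaat3, Col5a1, Flot2, a lipid raft protein, and Fgf7, a fibroblast-derived growth factor for epithelium, with 1.41 and -0.60.

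Several lists of Wnt signalling and epithelial genes also had a median effect above 0 in mucosa. The list of Wnt feedback inhibitors holds antagonists of the pathway, of which some are switched on by beta-catenin. It had 6 of 15 tested genes lower in tumours (40%) and 1 higher. Its median interaction was -1.20, and -0.68 with low signals raised. This median was -0.58 without the second control mucosa array, -0.67 without the first deficient tumour array and -0.59 with the spike-in level as a covariate. Notum, a secreted enzyme that inactivates Wnt ligands, had 7.72 and 7.21 in control mucosa, 9.67 and 9.94 in deficient mucosa, 11.50 and 11.24 in control tumours, and 10.96 and 11.55 in deficient tumours. Deficient mucosa lay between control mucosa and the tumours, whose genotypes overlapped. Notum rose by 2.33 in mucosa (adjusted p = 0.0348), had -0.12 in tumours and had an interaction of -2.45 ± 0.44 (adjusted p = 0.254). Dkk2 and Sfrp1, secreted Wnt antagonists, had interactions of -2.13 and -1.44, and that of Dkk2 was -0.72 with low signals raised. Ctnnbip1, an inhibitor of beta-catenin and TCF binding, had 1.17. Lgr5, the stem cell receptor raised in these tumours, had mean signals of 7.14 in control mucosa, 7.74 in deficient mucosa, 10.55 in control tumours and 10.36 in deficient tumours. The Wnt target Axin2 had means of 9.32, 9.63, 10.46 and 10.91. Its deficient mean was thus the higher one in both tissues, with overlapping tumour arrays. Whether adenoma cells within the pieces of deficient mucosa, or stromal cells in any of the pieces, contribute to these values was not tested.

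Wnt-driven growth and crypt genes had 5 of 21 lower (23.8%) and 0 higher, with a median interaction of -0.91. That median was -0.50 without the first control tumour array and -1.38 without the first deficient mucosa array. The interferon-inducible transmembrane genes Ifitm1, Ifitm2 and Ifitm3, which crypt and tumour cells express, had interactions of -1.79, -2.02 and -1.84. Ifitm1 rose by 2.16 (adjusted p = 0.0348) and Ifitm3 by 1.72 (adjusted p = 0.0395) in deficient mucosa, and their effects in tumours were 0.37 and -0.12. The adhesion receptor Cd44 had effects of 1.43 and -0.17. Intestinal stem cell markers had 3 of 16 lower (18.8%) and 0 higher, and genes of DNA replication and mitosis 1 of 29 lower (3.45%) and 0 higher, with medians of -0.68 and -0.66. The stem cell median was -0.43 without the first control tumour array and -0.35 without the second deficient mucosa array. The mitosis median was -0.41 and -0.32 in these cases, -0.33 without the first control mucosa array and -0.42 without the second deficient tumour array. Rrm2, which makes deoxynucleotides, had effects of 1.97 and -0.20.

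Genes of the fetal-like epithelium, a state that follows injury, had 6 of 13 lower (46.2%) and 0 higher, with a median of 1.08 in mucosa and 0.08 in tumours. Clu, the secreted chaperone clusterin that marks revival stem cells, had 11 and 11.77 in control mucosa, 13.52 and 13.90 in deficient mucosa, 14.60 and 14.56 in control tumours, and 14.63 and 14.74 in deficient tumours. It rose by 2.33 in mucosa (adjusted p = 0.0348), while its effect in tumours was 0.10. Its interaction was -2.22 ± 0.44. Anxa1, an anti-inflammatory annexin, rose by 1.80 in mucosa (adjusted p = 0.0395) and had 0.36 in tumours. The gap junction gene Gja1 and the matricellular gene Ccn2, both expressed by stroma as well, had interactions of -2.10 and -2.34.

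Gastric genes, which are typical of the stomach, had 4 of 15 lower (26.7%) and 1 higher. Their median effect was 1.99 in mucosa and 0.35 in tumours. The median interaction was -1.61, and -1.0 without the first control tumour array. Gkn3, a gastrokine, had 8.86 and 9.21 in control mucosa, 11.23 and 12.18 in deficient mucosa, 14.00 and 14.00 in control tumours, and 14.14 and 14.55 in deficient tumours. Deficient mucosa lay between control mucosa and the tumours here, and also for the aspartic protease gene Ctse and the annexin gene Anxa10. For the gastric claudin gene Cldn18, deficient mucosa was at the level of the tumours. All 4 genes rose in deficient mucosa, by 1.94 to 3.65 (adjusted p = 0.0348 for each), and their tumour effects lay between -0.04 and 0.34. Their interactions were -2.32 for Gkn3, -2.31 for Ctse, -1.98 for Anxa10 and -3.47 for Cldn18, the last -1.26 with low signals raised. Cldn2, the cation-pore claudin of leaky epithelium, rose by 2.40 in mucosa (adjusted p = 0.0348) and had 0.13 in tumours. Only 2 of the 23 claudin and junction genes were lower (8.7%, against 7.16% of all genes), and the list median was -0.10. S100g, a calcium-binding protein of duodenal enterocytes, rose by 3.25 (adjusted p = 0.0372) and had -0.07.

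Of 15 goblet cell genes tested, 4 were lower (26.7%) and 0 higher, with a median effect of 0.06 in mucosa and -0.49 in tumours. The tumour median was -0.11 without the second deficient tumour array. The median interaction of -0.55 was then -0.27, and it was -0.29 without the second control tumour array and -0.91 without the first deficient tumour array. The arrays of the 4 lower genes were apart in opposite directions, which a choice by small interaction p favours. Over all genes, 4.15% were apart this way. For the whole list the tumour genotypes overlapped, with array medians of 11.80 and 14.07 in control and 13.77 and 10.24 in deficient tumours. Spdef and Creb3l1, transcription factors of goblet cell maturation and secretion, had tumour effects of -0.45 and -1.20, and the mucin-folding sensor Ern2 had -0.54. Clca3a1, a chloride channel regulator in this list, had 1.80 in mucosa and -0.43 in tumours. Whether goblet cells are the source of its signal was not tested.

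**Figure D4:**
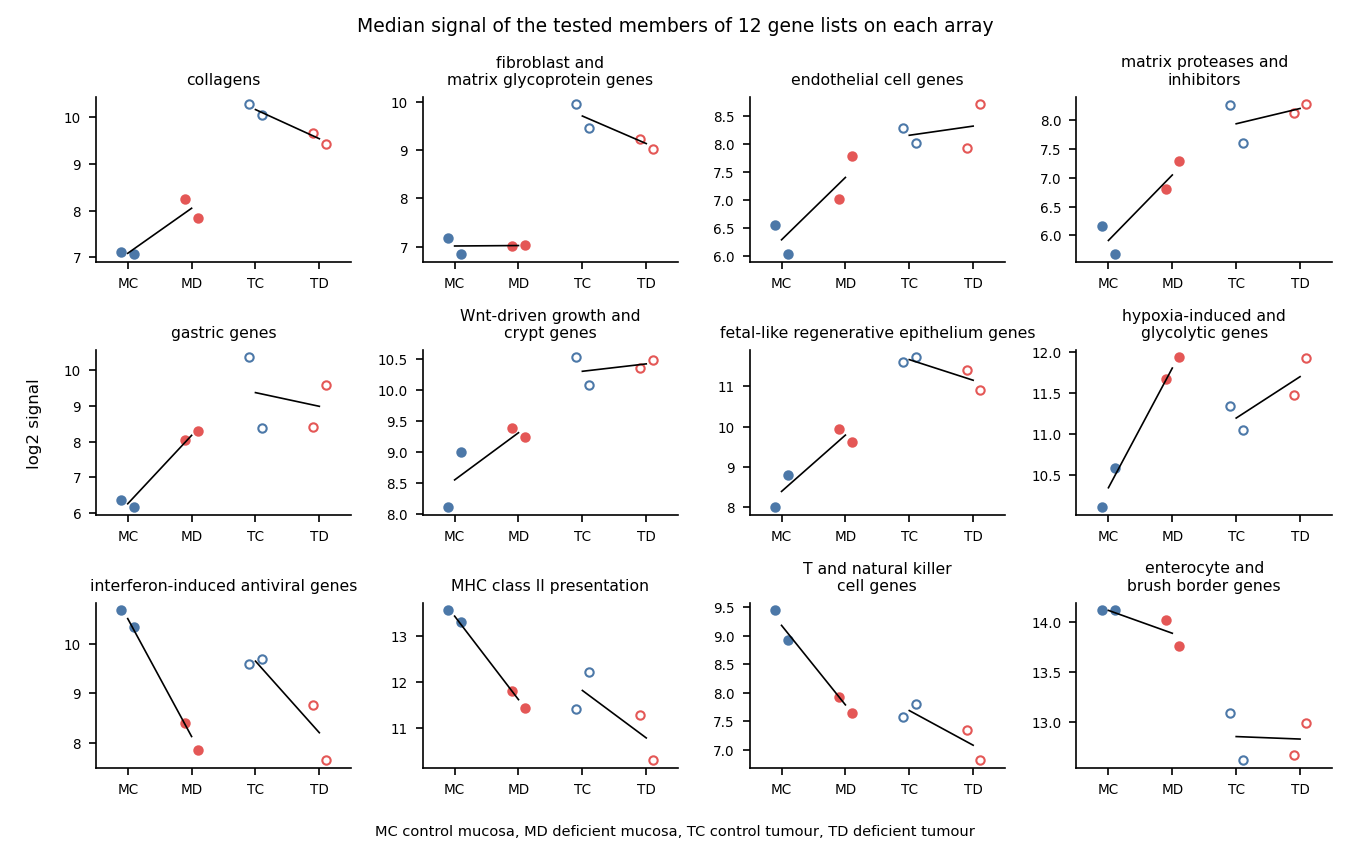
Median log2 signal over the tested members of 12 gene lists on each array, 2 arrays per group, with lines joining the group means. Filled points are mucosa, open points tumours, blue control and red deficient. The collagens go up from control to deficient mucosa and down in tumours, the gastric and fetal-like genes go up in mucosa towards the tumour level, and the interferon and MHC class II genes go down in both tissues.

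Hypoxia-induced and glycolytic genes had 7 of 24 lower (29.2%) and 0 higher, with medians of 0.86 in mucosa and 0.15 in tumours. Slc2a1, the basal glucose transporter, had 9.82 and 10.38 in control mucosa, 12.01 and 12.14 in deficient mucosa, 12.50 and 13.16 in control tumours, and 12.50 and 12.35 in deficient tumours. It rose by 1.97 in mucosa (adjusted p = 0.0443) and had -0.41 in tumours, with an interaction of -2.38 ± 0.45. Car9, a carbonic anhydrase that acidifies hypoxic tissue, rose by 1.77 (adjusted p = 0.0395) and had 0.17. The hexokinase gene Hk1 had effects of 1.24 and -0.53, and Pdk1, which diverts pyruvate from mitochondria, had 1.49 and 0.13. Cholesterol synthesis genes had 4 of 20 lower (20%) and 0 higher, with medians of 0.86 and 0.15. Mvd, Mvk and Fdft1, enzymes from mevalonate to squalene, had interactions of -1.23, -1.10 and -1.40. Among NRF2-type genes, 3 of 17 were lower (17.6%, against 7.16% of all genes). The aldo-keto reductase gene Akr1b8 rose by 2.32 in mucosa (adjusted p = 0.0348) with 0.30 in tumours. Cyp2d10, a drug-metabolising cytochrome, was the 1 of 28 lower in its list (3.57%). It had effects of 4.37 and 0.62 and an interaction of -1.46 with low signals raised.

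Interferon and antigen presentation genes had median effects below 0 in both tissues and median interactions above 0. The median interaction was 0.71 for both the antiviral and the MHC class II lists. Interferon-induced antiviral genes had 4 of 27 tested genes higher in tumours (14.8%, against 2.07% of all genes) and 0 lower. Their median effect was -2.01 in mucosa, where 7 fell after adjustment, and -1.20 in tumours, where none did. The median interaction of 0.71 was 0.19 without the first deficient tumour array and 0.39 without the second deficient mucosa array. Oas3, an enzyme that senses double-stranded RNA and activates RNase L, had 8.62 and 9.01 in control mucosa, 4.38 and 4.01 in deficient mucosa, 8.12 and 7.75 in control tumours, and 7.02 and 4.98 in deficient tumours. The deficient tumour arrays lay far apart from each other and below both controls. Oas3 fell by 4.62 in mucosa (adjusted p = 0.0348), had -1.94 in tumours and had an interaction of 2.68 ± 0.84 (adjusted p = 0.417), or 1.79 with low signals raised. Oasl2, another synthetase-like protein, and Xaf1, a pro-apoptotic factor, fell in mucosa and had interactions of 1.63 and 1.45. Zbp1, a sensor of Z-form nucleic acid, had 1.52.

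Of the interferon-gamma induced GTPases and effectors, 5 of 15 were higher (33.3%) and 0 lower, with medians of -0.98 in mucosa and -0.41 in tumours. The tumour median was -1.0 without the first deficient tumour array and -0.09 without the second, and the median interaction of 0.36 was 0.23 and 0.88. That interaction was 0.59 without the second control mucosa array, 0.64 without the first deficient mucosa array and 0.75 with the spike-in level as a covariate. Beside Ubd, the tryptophan-degrading enzyme gene Ido1 fell by 3.53 in mucosa (adjusted p = 0.0372) and had -1.18 in tumours. The guanylate-binding protein gene Gbp6 had -1.66 and 0.34, an interaction of 2.01. Irgm2, an immunity-related GTPase that acts on membranes around intracellular microbes, had 9.82 and 10.12 in control mucosa, 7.52 and 8.39 in deficient mucosa, 8.63 and 8.91 in control tumours, and 8.74 and 7.98 in deficient tumours. Its groups were apart in mucosa and overlapped in tumours, with an interaction of 1.60 ± 0.54. Igtp, of the same family and named after its values were seen, had effects of -2.15 and -0.67 and an interaction of 1.48.

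The promoters of these genes were read from RefSeq (GRCm38.p6), in windows from 250 bases before to 50 after each start, to show the element through which interferon-activated factors are known to act. The motif, GAAA followed after any 2 bases by another GAAA, was searched on both strands. It was found in 3.44% of 32851 windows and for 3.99% of 27025 genes. It was found for 10 of the 18 antiviral genes that have a window, for 7 of the 9 interferon-gamma induced genes, for 3 of the 13 MHC class I pathway genes, for 1 of the 6 MHC class II genes and for 0 of the 15 collagens. The stretches below are shown because these 3 genes had higher interactions and carry the motif close to the start, where a match is a description of the letters and not a site of binding. Each runs 5′ to 3′ on the strand of the gene, ends before the start, and has the motif in capitals. They lie at chr5:120777675-120777784 (minus strand) for Oas3, chr11:58199472-58199555 (plus strand) for Igtp and chr11:58214863-58214972 (plus strand) for Irgm2. From the 5′ end, the Igtp and Irgm2 stretches have 81 of 84 bases in common.
Oas3: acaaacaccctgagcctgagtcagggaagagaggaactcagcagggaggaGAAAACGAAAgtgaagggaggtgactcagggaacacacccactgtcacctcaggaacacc
Igtp: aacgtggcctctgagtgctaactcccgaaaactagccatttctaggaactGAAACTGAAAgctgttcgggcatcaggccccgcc
Irgm2: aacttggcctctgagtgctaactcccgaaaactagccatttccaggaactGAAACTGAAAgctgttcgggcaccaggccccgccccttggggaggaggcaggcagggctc

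MHC class II genes, which present extracellular antigen to helper T cells and are carried by gut epithelium as well as leukocytes, had 3 of 8 higher (37.5%) and 0 lower. Their median interaction was 0.40 without the first control tumour array and 0.43 without the first deficient tumour array. H2-Ab1, the beta chain of the I-A molecule, had 13.98 and 13.48 in control mucosa, 11.57 and 11.37 in deficient mucosa, 11.17 and 11.85 in control tumours, and 10.48 and 10.32 in deficient tumours. Deficient mucosa was at about the level of control tumours, and deficient tumours were lower still. H2-Ab1, H2-Eb1 and H2-DMa, whose product helps load the peptide, fell in mucosa, with effects of -2.26, -2.06 and -2.07, and had -1.11, -0.72 and -1.11 in tumours. Their interactions were 1.15, 1.34 and 0.96. In the class I pathway, 2 of 15 genes were higher (13.3%) and 0 lower. The peptide transporter gene Tap2 fell by 1.57 in mucosa (adjusted p = 0.0454), had -0.05 in tumours and had an interaction of 1.51 ± 0.37. Psmb8, a catalytic subunit of the immunoproteasome, had -2.62 and -1.11.

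T and natural killer cell genes stood beside the interferon genes, and their part in those values was not tested. Of 17 tested, 1 was higher (5.88%, against 2.07% of all genes) and 0 lower. The medians were -1.29 in mucosa, -0.86 in tumours and 0.20 for the interaction. That last median ran from 0.07 without the first deficient tumour array to 0.51 without the second. Their median signal was 9.19 in control mucosa, 7.78 in deficient mucosa, 7.55 in control tumours and 6.79 in deficient tumours. Zap70, a kinase of T cell receptor signalling, had effects of -0.96 and 0.52. The receptor subunits Cd3g and Cd3d had -1.46 and -1.53 in mucosa and -0.64 and -0.76 in tumours.

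Inflammatory genes gave mixed counts. Neutrophil genes had 3 of 12 lower (25%) and 0 higher, with medians of 0.78 in mucosa and -0.30 in tumours. Over the left-out arrays, the medians of these genes ran from 0.36 to 1.07 in mucosa and from -0.72 to -0.08 in tumours. Their median interaction of -1.15 was -0.42 without the first control tumour array, -0.69 without the second control mucosa array and -0.73 without the second deficient tumour array. S100a9, a subunit of calprotectin, had 5.82 and 4.52 in control mucosa, 8.83 and 6.48 in deficient mucosa, 10.85 and 9.99 in control tumours, and 8.74 and 8.38 in deficient tumours. Its groups were apart in opposite directions despite a wide spread, with an interaction of -4.35 ± 1.08. Its partner S100a8 had -3.84 ± 1.24. Acute-phase and plasma protein genes had 5 of 10 lower (50%) and 0 higher. The median interaction was -1.51. Besides Hp, albumin, Alb, had effects of 2.30 and -1.46, and ceruloplasmin, Cp, had 1.39 and -0.01. The interaction of Alb was -3.77 and, with low signals raised, -1.56. Among NF-kappaB targets and cytokines, 4 of 22 were lower (18.2%) and 2 higher (9.09%), with a median interaction of -0.18, near that of all genes. That median ran from -0.77 without the second deficient mucosa array to -0.08 without the second deficient tumour array. It was -0.67 without the second control tumour array. Ptgs2, the inducible cyclooxygenase, had 6.69 and 6.55 in control mucosa, 7.25 and 7.43 in deficient mucosa, 11.09 and 10.15 in control tumours, and 9.10 and 9.13 in deficient tumours. Both deficient tumour arrays were over 1 log2 unit below both controls, with effects of 0.72 and -1.51 and an interaction of -2.23 ± 0.47. Il1a and the monocyte chemokine gene Ccl2 had interactions of -1.80 and -3.11, or -1.30 and -1.25 with low signals raised.

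Immediate early genes, which respond within minutes to growth factors and stress, had 4 of 20 higher (20%) and 0 lower. Fosb fell by 2.90 in mucosa (adjusted p = 0.0348) and Atf3 by 1.94 (adjusted p = 0.0476), with -0.98 and -0.45 in tumours. Jun had effects of -1.0 and 0.32, and Gadd45b had -0.27 and 0.90. The list median of 0.13 was -0.15 with the first control tumour array left out.

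Among the partners of HAI-1 itself, 1 of 15 tested genes was lower and 1 higher (6.67% each, against 7.16% and 2.07% of all genes). The share on the lower side was thus near that of all genes. The median interaction of the list was -0.26, and -0.45 without the first deficient tumour array. Prss8, the membrane protease prostasin, had 8.57 and 8.12 in control mucosa, 9.43 and 9.06 in deficient mucosa, 9.73 and 9.70 in control tumours, and 9.48 and 9.28 in deficient tumours. It was above both controls in deficient mucosa and below both controls in deficient tumours, with an interaction of -1.24 ± 0.38 (adjusted p = 0.406). Mst1, the macrophage-stimulating protein that HAI-1 target proteases activate, had effects of -0.68 and 0.52 and an interaction of 1.20 ± 0.38. Hpn, the protease hepsin, had -1.56 ± 0.98, and -0.56 with low signals raised. The main target St14, matriptase, chosen here for that role and not by rank, had an interaction of -0.09. Of the plasminogen activators and serpins, 2 of 6 were lower and 0 higher. Plat, the tissue plasminogen activator, rose by 2.56 in mucosa (adjusted p = 0.0448) and had 0.61 in tumours, and the C1 inhibitor gene Serping1 had 1.27 and -0.19.

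Of the 45 gene lists, 34 had a negative median interaction and 11 a positive one. Without 1 array or another, the median of 39 of these lists moved by over 1.5 times or changed sign. The other 6 were the collagens, fibroblast and matrix glycoproteins, matrix proteases, fetal-like genes, acute-phase proteins and ribosomal proteins. Enterocyte and brush border genes had 1 of 32 higher (3.12%) and 0 lower, with a median of -0.14, and Tmigd1, an adhesion protein of enterocytes, had effects of -1.17 and 0.06. Oxidative phosphorylation subunits had 0 of 32 in either direction and a median of 0.00. Cytosolic ribosomal proteins had a median of -0.63 with 1 of 18 lower (5.56%, against 7.16% of all genes). Pancreatic enzymes, which would mark attached pancreas, had 0 of 10 in either direction. Tuft cell genes had 1 of 13 higher (7.69%, against 2.07% of all genes), Pou2f3, the factor that specifies tuft cells, with effects of -0.06 and 1.82. Enteroendocrine genes had 1 of 18 higher (5.56%), Gip, an incretin hormone, with -0.59 and 0.53. Paneth cell genes had 1 of 15 higher (6.67%), the antimicrobial lectin gene Reg3a, with -1.39 and 1.28.

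The lists not yet described had few genes at an unadjusted p under 0.05, where 7.16% of all genes were lower and 2.07% higher. Macrophage genes had 1 of 15 lower (6.67%) and 0 higher, and the mannose receptor gene Mrc1 had effects of 0.94 and -0.18. Mast cell genes had 1 of 9 lower (11.1%), Gata2, a transcription factor that endothelium also expresses, with 0.88 and -0.60. B and plasma cell genes had 0 of 9, interferon receptors and their transcription factors 0 of 16, and ileal bile acid and vitamin B12 genes 0 of 10 in either direction. Fatty acid oxidation genes had 3 of 22 lower and 0 higher, with Acot1 followed by Acot2, its mitochondrial relative, which had effects of 1.63 and -0.23. Circadian clock genes had 1 of 17 lower (5.88%), the repressor gene Bhlhe41, with 0.95 and -0.83. Proximal intestinal genes had 1 of 12 lower, S100g, with a list median of -0.84 that was -0.28 without the second control tumour array and -0.48 without the first deficient mucosa array.

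**Figure D5:**
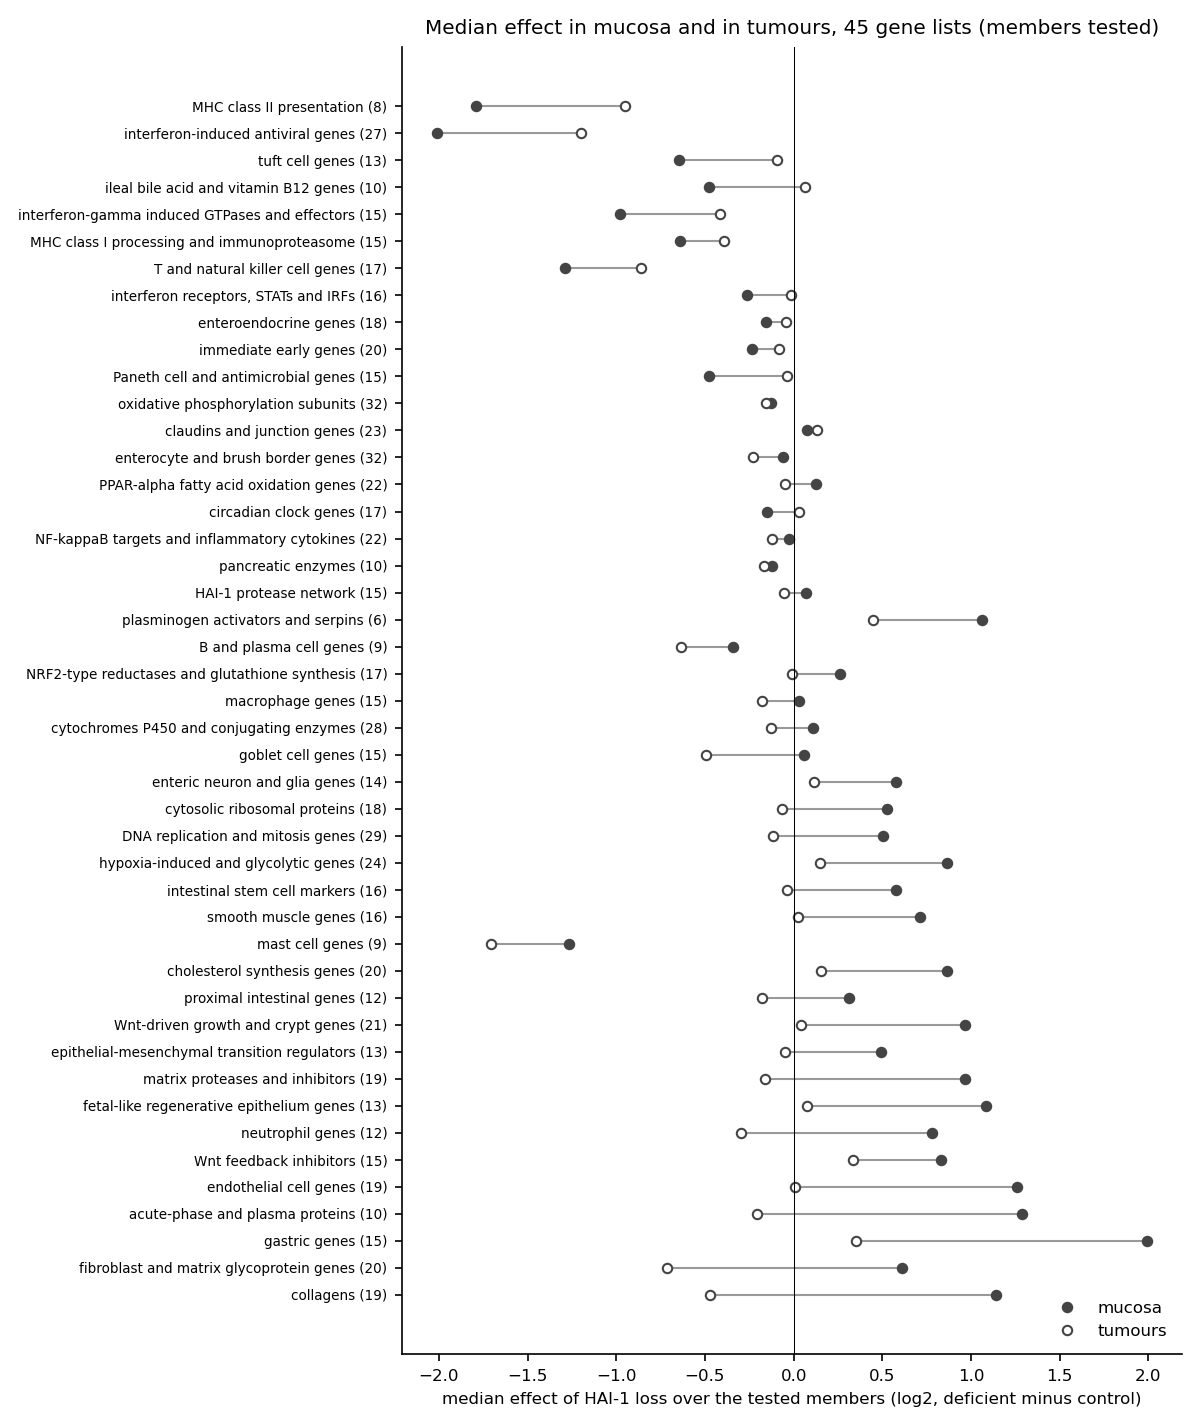
Median effect of HAI-1 loss over the tested members of each of the 45 gene lists, in log2 units as deficient minus control, for mucosa (filled) and tumours (open), sorted by the median interaction with the lowest at the bottom. The number of tested members is in brackets. The collagens run from 1.14 in mucosa to -0.47 in tumours, and the antiviral interferon genes from -2.01 to -1.20.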

How the data were processed

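RNA from 8 tissue samples was extracted with Trizol, labelled with biotin by the Affymetrix one-cycle protocol per the labels, and hybridised to mouse arrays of 45101 probe sets. The submitters' processing notes name MAS5 and RMA. The deposited values were used as the authors' log2 signals: their linear trimmed means are 500.0 on all arrays, a property of MAS5 scaling, so no further normalization was applied. Depth has no meaning for arrays, and 2 per group limit the precision.

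Probe sets were named from platform annotation: 34958 had 1 gene, of which 34754 are in the RefSeq table, 932 had several and 9211 none. Probe sets under the 40th percentile of mean signal (5.20) were removed and each gene kept its brightest single-gene probe set. The deposited log2 values were fitted with limma 3.58.1 in R 4.3.3, with 1 mean per group and a two-sided interaction contrast, and p-values were adjusted by Benjamini-Hochberg over 13119 genes. The fit was tested on simulated data.

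Named genes are the 12 with the smallest interaction p in each direction, with an interaction of at least 1 also after low signals were raised to the filter value, without clone-style symbols, and up to 4 per list by smallest p. The 45 lists and these choices were made with earlier results of these data known. Alternatives were quantile normalization, median centring, no filter or the 60th percentile, raised low signals, the mean of probe sets, a variance trend, array weights, replicate number or spike-in level as a covariate, the low spike-in arrays alone, and leaving out each array. Figures were drawn with matplotlib 3.10.9.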

Additional observations from a re-analysis of the deposited data

Results flagged for a closer look

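In 14 of the named genes, every deficient array moved one way in mucosa and the other way in tumours relative to the controls. The difference itself was tested by limma as the interaction and did not pass after adjustment in any of them. Deficient mucosa was lower and deficient tumours higher for Cbx3 (interaction 2.36), Mycbpap (2.23), Plaat3 (1.95), Tmem126b (3.06), Scube1 (1.88), Nol6 (1.53), Edaradd (2.41), Cby1 (2.08) and Tiam2 (1.42). Deficient mucosa was higher and deficient tumours lower for Chil3 (-6.42), Fgfr1 (-2.55), Pcolce (-2.56), Igfbp5 (-2.67) and Fabp4 (-3.64). All tumour arrays of Scube1 were under the filter value, and its tumour effect was 0 with low signals raised. Control tumour arrays of Cbx3 and Tmem126b and control mucosa arrays of Chil3 were also under it. For Tiam2 the lower deficient tumour array was at 7.466 and the higher control one at 7.460. The second probe set of Nol6 gave -1.87. Over all genes tested, 2.0% were apart the first way and 4.15% the second. The named genes were chosen by a small interaction p, which favours such opposite moves. Their count is therefore partly fixed by the choice and cannot be read against these shares.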

How the results depend on the processing

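The interaction gave 0 calls under all 18 fitted alternatives, and 894 to 1382 genes at an unadjusted p under 0.05 against 1211. Of 419 values of the named genes under alternatives with a test, 418 kept their direction. The tested value that reversed was that of Nol6, at -0.17 with the mean of probe sets. All 24 untested values within the low spike-in arrays kept their direction. These genes were named by their interaction on the same arrays, and several settings leave an estimate unchanged. The counts are therefore a description and do not measure robustness. The interaction of Spint1 kept its direction, from -0.73 to -0.37. The count of 138 genes called in mucosa was 46 with quantile normalization, 67 with median centring, 0 without a filter, 331 with the 60th percentile filter, 279 with low signals raised, 86 with the mean of probe sets and 370 with a mean-variance trend. It ran from 0 to 171 over the left-out arrays. The correlation of the effects, 0.29, was 0.146 without a filter and 0.0809 within the low spike-in arrays, and ran from 0.0826 to 0.35 over the left-out arrays. With the replicate number as a block, the interaction had 0 calls and 1272 genes at an unadjusted p, and the mucosa count was 84. The deviations of same-numbered arrays had correlations of -0.138 to 0.22 between groups, so the numbers were not taken as a pairing. Of 855 list medians under alternatives, 760 moved by no more than the spread of that list between arrays of a group. Several settings cannot move these medians, and a list with a wide spread passes easily. This count does not measure robustness either. With 2 arrays per group, an array that is left out leaves its group with 1, assumed to vary like the others. Signals under the filter value have no reliable order, and the deposited arrays give no depth.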
